A study of Homo sapiens with 4 samples.

Results

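The EGR, KLF and NR4A immediate-early genes examined here were 10 of the 23362 genes in a table of RNA levels from MKN28, a human gastric adenocarcinoma cell line. They were taken by name, with earlier results of these data known, and comprised EGR1, EGR2, EGR3, IER2, IER3, KLF4, KLF6, NR4A1, NR4A2 and NR4A3. Poly(A) RNA had been sequenced from 4 stable lines made with a tet-on retroviral vector, in which doxycycline switches the insert on. Luc cells carried luciferase as the control. WT cells carried KIAA1324, a transmembrane protein studied as a tumor suppressor. 3NQ cells carried KIAA1324 with glutamine in place of asparagine at 3 N-glycosylation sites, and ΔTM cells KIAA1324 without its transmembrane domain. The lines had been selected with G418 and puromycin. The sources used here do not say if cells received doxycycline ahead of RNA extraction, or if a line was a pool or 1 clone.

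Each group had 1 library, so that no difference has a replicate check, no p-value was computed and every value below is that of a single library. FPKM, the number of sequenced fragments scaled for gene length and library size, summed to between 560540 and 585104 per library. No read counts were given, so that depth is unknown and no interval can be set on a value. KIAA1324 was at an FPKM of 2.86 for Luc, 11185 for WT and 8197 for 3NQ, and was listed at 0 in the library labelled ΔTM. An exact 0 can be a failed estimate in such a table, so that the construct was not seen there, against the label, but its absence is not shown. The library is called the library labelled ΔTM, or ΔTM-labelled library, throughout. All 7 epithelial markers were above 0 in every library, with a summed FPKM from 7946 in WT to 13662 in Luc. Of 7 markers of blood, endothelial and stromal cells, 1 to 3 were listed at 0 in a library, and their summed FPKM was 17.2 to 20.7, most of it from COL1A1 at 12.1 to 15.3. The defining leukocyte marker PTPRC was at most 0.115, and CD3E was listed at 0 in every library. CD68, also on the list as a blood cell marker, was higher, at 4.44 to 5.84. PECAM1 had been planned as a marker too but had no entry.

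Immediate-early genes are transcribed within minutes of a growth signal or a stress, before any new protein is made, by factors that are already on or near their promoters. Serum response factor, which binds the CArG box together with an ETS partner phosphorylated by ERK, and CREB, which binds the cAMP response element, are the best-known of these factors. Many of the products are transcription factors themselves. EGR1, EGR2 and EGR3 are zinc finger proteins that bind GC-rich sites. KLF4 and KLF6 are Krüppel-like zinc finger factors, and KLF4 marks differentiating epithelium of the gut. NR4A1, NR4A2 and NR4A3 are orphan nuclear receptors that act without a known hormone. IER2 is a small nuclear protein, and IER3 a small stress-induced protein linked to cell survival.

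Promoter sequence is shown for 4 genes, EGR1 and EGR2 because they hold the CArG box of serum response factor, and KLF4 and KLF6 because KLF6 had the largest difference of the set while KLF4 is its relative. RefSeq promoters were matched by symbol for 7 of the 10 genes with 10 start sites, and EGR3, IER3 and NR4A2 had no entry in the table. Each window of 250 bases before a start was found exactly once on GRCh37, the build used by the authors, and coordinates are on that build. The sequences run 5′ to 3′ on the strand of the gene, and capitals mark CArG boxes, the short cAMP response motif TGACG, which reads CGTCA on the other strand, and the EGR site GCGNGGGCG in either direction. The stretches were chosen to leave out bases that GENCODE places in an exon of another transcript, so that KLF6 is given as 30 bases around its EGR site. In the deposited annotation, however, these genes reach further, EGR2 to 64679660, KLF4 to 110252763 and KLF6 to 3827473. All printed bases of EGR2 and KLF4, and those of KLF6 up to 3827473, therefore lie within the gene as annotated there. In order, they lie at chr5:137800918-137801167 (plus strand), chr10:64576134-64576376 (minus strand), chr9:110252051-110252300 (minus strand) and chr10:3827447-3827476 (minus strand).
EGR1: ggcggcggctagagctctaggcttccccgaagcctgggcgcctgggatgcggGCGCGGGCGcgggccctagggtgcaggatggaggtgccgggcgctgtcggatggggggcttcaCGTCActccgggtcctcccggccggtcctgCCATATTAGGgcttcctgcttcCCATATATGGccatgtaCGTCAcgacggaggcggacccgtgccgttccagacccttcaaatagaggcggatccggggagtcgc
EGR2: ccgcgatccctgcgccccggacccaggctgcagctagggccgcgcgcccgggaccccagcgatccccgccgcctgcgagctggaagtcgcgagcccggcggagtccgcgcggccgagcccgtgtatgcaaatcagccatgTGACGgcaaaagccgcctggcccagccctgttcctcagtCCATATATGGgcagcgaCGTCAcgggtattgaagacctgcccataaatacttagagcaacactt
KLF4: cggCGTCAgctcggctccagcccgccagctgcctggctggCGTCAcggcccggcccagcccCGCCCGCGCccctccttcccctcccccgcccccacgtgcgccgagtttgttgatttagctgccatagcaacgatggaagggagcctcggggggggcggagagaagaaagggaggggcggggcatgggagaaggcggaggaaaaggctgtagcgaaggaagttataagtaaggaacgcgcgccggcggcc
KLF6: ggggagccagGCGGGGGCGgagggggaggc

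EGR1 held 2 CArG boxes, CCATATTAGG from 105 to 96 bases and CCATATATGG from 83 to 74 bases before its start. The latter box, in the same letters, also lay 71 to 62 bases before the EGR2 start that is shown. Among the 35116 promoter windows of the table, 1.16% held a CArG box on either strand, compared to 2 of the 7 genes here. TGACG was present in 5 of the 7 genes (EGR1, EGR2, IER2, KLF4 and NR4A3) and in 21.2% of all windows, whereas the full element TGACGTCA, which contains TGACG on both strands, was found in none of the 7 and in 1.65% of all windows. The EGR site was present in EGR1, KLF4 and KLF6, 3 of the 7 genes, and in 8.41% of all windows. It overlaps the GC box GGGCGG in KLF4 and KLF6, and GC boxes were found in 5 of the 7 genes and in 42.6% of all windows. G and C made up 68.4% of the EGR1 window, 69.2% of that of KLF4 and 72.4% of that of KLF6. The median of all windows was 58%, and the shares above are not adjusted for this. The ETS core CCGGAA was found in IER2 and NR4A1, and in 14.5% of windows. Neither the TATA box TATAAA (10.7% of windows) nor AAAGGTCA, the site bound by a single NR4A receptor (1.05%), was found in any of the 7. Both strands were searched for each motif. EGR2 was read at 3 starts and NR4A1 at 2, which gives a gene more chances of a match than a window. The NR4A1 windows end at bases 52416615 and 52431498 of chromosome 12. Its canonical transcript, used for gene structure below, starts further downstream, at 52445226. The bases before that start were not read, so that the NR4A1 matches and absences describe other starts. A match describes letters in a window and does not show that a factor binds there.

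**Figure D1:**
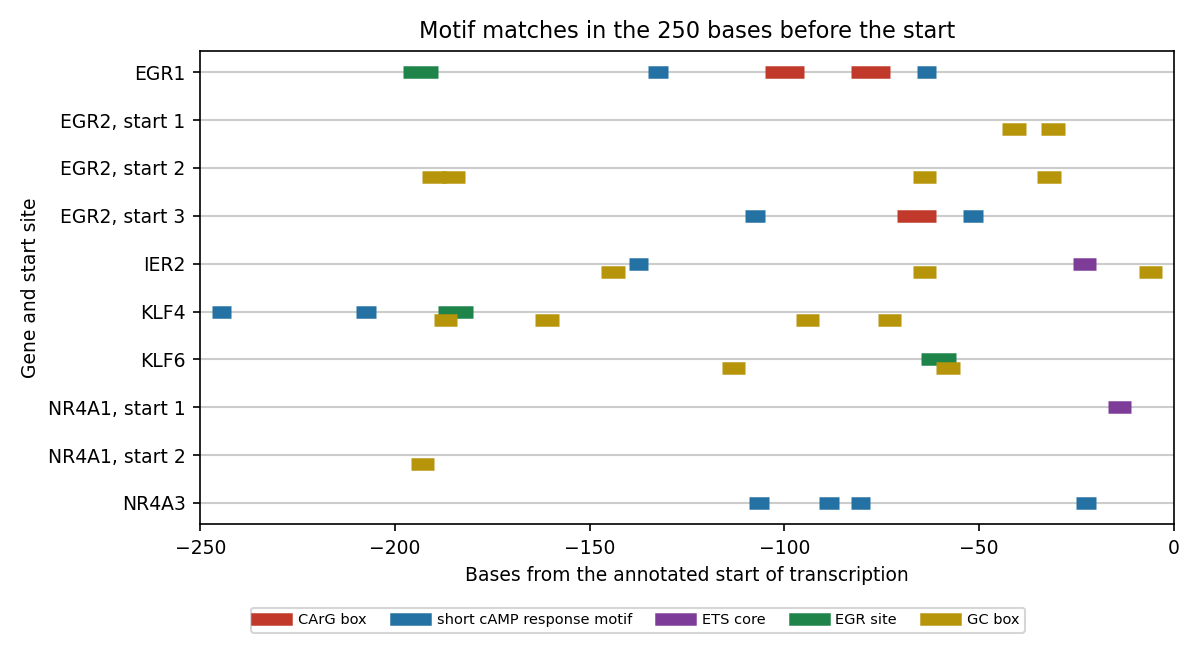
Motif matches (colored blocks) in the 250 bases before each annotated start of transcription, with the distance from the start in bases on the x axis and the gene and start site on the y axis. The 2 CArG boxes of EGR1 and the box of EGR2 at its start 3 lie within 105 bases of the start, and GC boxes are drawn slightly below the line so that an overlapping EGR site stays visible.

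Read on their canonical transcripts, most of the 10 genes were short. On the canonical transcripts of GENCODE, 9 of the 10 spanned under 10000 bases, compared to 21.6% of the 11078 tested genes with a canonical coding transcript. NR4A3 was the exception at 45007 bases. The deposited annotation, to which the FPKM belong, gives wider spans for EGR2, NR4A1 and NR4A2. EGR2 runs from 64571756 to 64679660 there, so that the short spans hold for the canonical transcripts alone. EGR1, EGR2, EGR3, IER2 and IER3 had 2 exons each, a number that 5.73% of the tested genes did not exceed, and the other 5 genes had 4 to 8. Many immediate-early transcripts carry AU-rich elements, built on the pentamer ATTTA, which speed their decay. The pentamer was found 6 times in the 740 bases of the IER3 3′ UTR (8.11 per kilobase) and 3 times in the 562 bases of the NR4A1 3′ UTR (5.34 per kilobase), whereas the IER2 3′ UTR had none in 1056 bases. The median tested gene had 1.72 per kilobase, and 5 of the 10 genes were above it. The longer element TTATTTATT was in none of the 10 and in 9.51% of tested genes. Long non-coding RNA genes of GENCODE overlap the exons of 7 of the 10 genes, 6 of them from the opposite strand, while EGR1, KLF6 and NR4A2 are overlapped by none. The overlap takes in 5604 exon bases of NR4A3, whose transcript has 5604, and 2023 of the 4514 of EGR3. The library kit is not stated to keep strand, so that reads of such a partner could not be told apart. The authors also masked non-coding regions, which could have removed reads of a member under such a gene. Whether the mask held these partners is not stated, and its part in the FPKM was not tested.

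All 10 genes had their highest FPKM in WT. This rule was set after the values were seen. Of the 10, 7 reached an FPKM of 1 in a library, and all 7 were highest in WT. EGR2, EGR3 and NR4A3 stayed at 0.122 to 0.531, so that their order of libraries rests on low values. The highest of the 4 values was that of WT in 33.6% of the 11769 genes that reached an FPKM of 1 in a library, and in 31.2% of the 18652 genes above 0 in a library. The 10 genes share signals and cells and are not independent of each other. Leaving out the library labelled ΔTM cannot change this count, and 37.2% of tested genes were then highest in WT. All 10 were also highest in WT with each library rescaled, either to a common median of ratios or to a common upper quartile (30.4% with either). The lowest library was Luc for 5 of the genes, all of them tested (18.3% of tested genes were lowest in Luc), the library labelled ΔTM for 4 and 3NQ for EGR3. Together, the 10 genes made up 0.0349% of the summed FPKM for Luc, 0.0523% for WT, 0.0396% for 3NQ and 0.0366% for the ΔTM-labelled library.

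**Figure D2:**
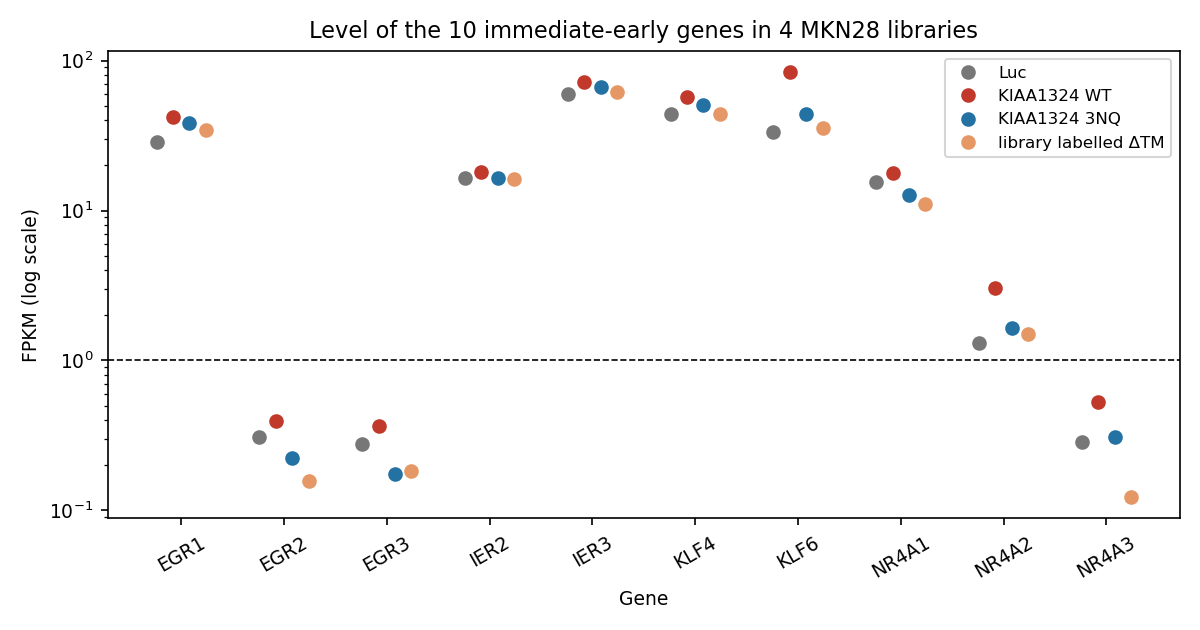
FPKM (y axis, log scale) of each of the 10 genes (x axis), with 1 point per library and no error bar since each group had 1 library. The dashed line is the filter at an FPKM of 1. The red WT point is the highest for every gene, from 0.367 for EGR3 to 83.9 for KLF6, and EGR2, EGR3 and NR4A3 lie below the line in all 4 libraries.

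Levels differed widely within the set. FPKM is scaled for gene length, so that levels can be set side by side between genes. In Luc, the order was IER3 (60.3), KLF4 (44.1), KLF6 (33.3), EGR1 (28.8), IER2 (16.5), NR4A1 (15.5), NR4A2 (1.30), EGR2 (0.307), NR4A3 (0.285) and EGR3 (0.278). In WT, KLF6 came first, at 83.9, followed by IER3 at 72.2, KLF4 at 57.2 and EGR1 at 41.9. In both 3NQ and the library labelled ΔTM, the first 3 were IER3, KLF4 and KLF6, as in Luc. Without replicates, neighbors in this order cannot be said to differ. IER3 in Luc was above 84.0% of the 11769 tested genes and NR4A2 above 5.85% of them.

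Differences between libraries were computed as differences of log2(FPKM + 1), which understates the change of low genes, and a gene was called higher or lower from 1.5-fold up on that scale, a difference of 0.58. Of the 10 genes, 7 passed the filter and could be called. EGR2, EGR3 and NR4A3 were below it in all 4 libraries. The comparisons of WT, 3NQ and the library labelled ΔTM with Luc share the same Luc library, and a deviation of that library would enter all of them. The comparisons of WT with Luc, 3NQ and the library labelled ΔTM likewise share the WT library and are not separate checks. In WT compared to Luc, 2 of the 7 were called higher, KLF6 and NR4A2, whereas 3.36% of all tested genes were. No member was called lower, compared to 3.34% of tested genes. The median difference of the 7 was 0.37, and that of all tested genes was −0.0049. All 7 were above 0, which follows from all 7 being highest in WT.

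In 3NQ compared to Luc, no member was called in either direction, where 1.77% of tested genes were called higher and 2.57% lower. The median of the 7 was 0.19, with 6 above 0, and that of all genes −0.038. The library labelled ΔTM compared to Luc also had no call, against 1.54% higher and 1.57% lower among tested genes. The median of the 7 was 0.033, with 5 above 0, and that of all genes −0.060. IER2 was at −0.031 there, and at 0.028 after rescaling to a common median of ratios, which puts 6 above 0. No count at an unadjusted p can be given, since no test was made.

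The constructs were also compared with each other, without Luc. KLF6 and NR4A2 were called higher in WT than in 3NQ, 2 of the 7, where 2.89% of tested genes were. None was called lower, where 1.58% of tested genes were. KLF6, NR4A1 and NR4A2 were called higher in WT than in the library labelled ΔTM, 3 of the 7, where 4.25% of tested genes were. Again none was called lower, where 2.91% of tested genes were. After rescaling to a common median of ratios, the share of higher genes among all calls fell from 59.3% to 47.5% in this comparison and went from 49.5% to 59.9% for the library labelled ΔTM against Luc, while the members called were as many as before. No member was called between 3NQ and the library labelled ΔTM, where 1.46% of tested genes were called higher and 1.88% lower. All 7 were above 0 in each of these comparisons, with a median difference of 0.18 for WT against 3NQ, 0.36 for WT against the library labelled ΔTM and 0.14 for 3NQ against that library. The corresponding medians of all tested genes were 0.025, 0.047 and 0.021. For WT against either library, the sign follows from all 7 being highest in WT and adds nothing to that count.

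**Figure D3:**
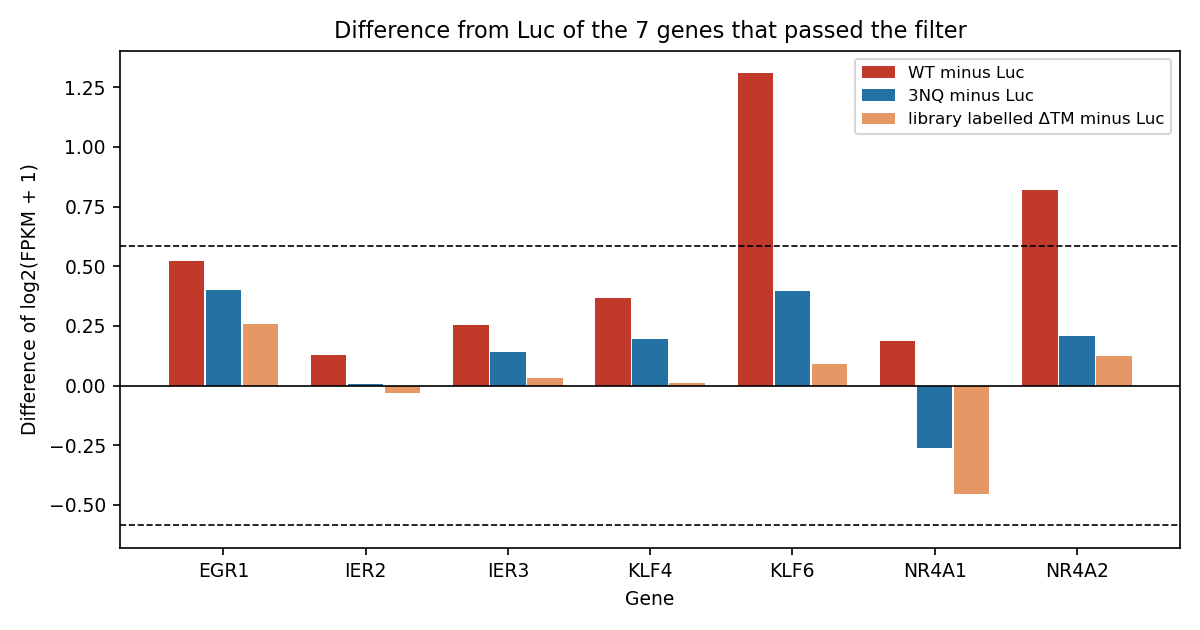
Difference of log2(FPKM + 1) from Luc (y axis) for the 7 genes that passed the filter (x axis), in WT (red), 3NQ (blue) and the library labelled ΔTM (orange), with no error bar since each group had 1 library. Dashed lines mark 1.5-fold. The WT bars of KLF6 (1.31) and NR4A2 (0.82) are the ones past the line, and NR4A1 lies below 0 in 3NQ and the library labelled ΔTM.

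KLF6 (ENSG00000067082, chromosome 10 from 3818188 to 3827473, minus strand) regulates growth and is known as a suppressor of growth in several tumors. Its FPKM was 33.3 for Luc, 83.9 for WT, 44.2 for 3NQ and 35.5 for the ΔTM-labelled library. WT stood apart from the other 3 libraries, which lay within 33.3 to 44.2. The ratio of FPKM of WT to Luc was 2.52, and the difference on the log2(FPKM + 1) scale was 1.31, rank 33 of the 11769 tested genes from the highest. The difference was 0.40 in 3NQ and 0.089 in the ΔTM-labelled library, both below the threshold. WT was higher than 3NQ by 0.91, rank 87, and higher than the library labelled ΔTM by 1.22, rank 45.

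KLF4 (ENSG00000136826, chromosome 9 from 110247133 to 110252763, minus strand) restrains proliferation in the gut epithelium. Its FPKM was 44.1 for Luc, 57.2 for WT, 50.5 for 3NQ and 44.3 for the ΔTM-labelled library. Luc and the library labelled ΔTM were nearly level, and WT was 1.30 times Luc. KLF4 differed from Luc by 0.37 in WT, 0.19 in 3NQ and 0.0092 in the ΔTM-labelled library, none of them called.

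EGR1 (ENSG00000120738, chromosome 5 from 137801179 to 137805004, plus strand) is the most widely induced member of its family and responds to ERK signaling. Its FPKM was 28.8 for Luc, 41.9 for WT, 38.4 for 3NQ and 34.7 for the ΔTM-labelled library. The libraries were spread in steps, and WT did not stand apart from the other 3 as it did for KLF6. The difference from Luc was 0.52 in WT, just under the threshold, 0.40 in 3NQ and 0.26 in the ΔTM-labelled library. WT differed from 3NQ by 0.12 and from the library labelled ΔTM by 0.27. EGR1 and KLF6 had nearly the same difference in 3NQ, ranks 513 and 525, and parted in WT, where EGR1 had rank 528.

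EGR2 (ENSG00000122877, chromosome 10 from 64571756 to 64679660, minus strand) is best known for its part in myelin formation and in lymphocytes. It had an FPKM of 0.307 for Luc, 0.397 for WT, 0.222 for 3NQ and 0.158 for the ΔTM-labelled library. EGR3 (ENSG00000179388, chromosome 8 from 22545172 to 22550815, minus strand) had 0.278, 0.367, 0.175 and 0.184, in the same order. Both were highest in WT and second in Luc, and at such levels no change was read from them. EGR4, the remaining family member, was listed at 0 in 3 libraries and had 0.0192 in 3NQ.

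NR4A1 (ENSG00000123358, chromosome 12 from 52416616 to 52453291, plus strand), also known as NUR77, is linked to apoptosis. Its FPKM was 15.5 for Luc, 17.7 for WT, 12.7 for 3NQ and 11.0 for the ΔTM-labelled library. It was the one tested member that lay below Luc in 3NQ, by −0.26, and it lay further below in the library labelled ΔTM, by −0.46, with 0.19 in WT. No difference from Luc was called. WT was 1.61 times the library labelled ΔTM, a difference of 0.64 that was called. It was 0.51 with a pseudocount of 5, which is not called, and 0.59 after rescaling to a common median of ratios. The difference of WT from 3NQ was 0.45.

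NR4A2 (ENSG00000153234, chromosome 2 from 157180944 to 157198860, minus strand), also known as NURR1, is needed for dopamine neurons and is induced by cAMP in many cells. It was low, with an FPKM of 1.30 for Luc, 3.05 for WT, 1.65 for 3NQ and 1.5 for the ΔTM-labelled library. WT was again apart from the other 3 libraries, at 2.35 times Luc. The difference was 0.82 from Luc (rank 151), 0.61 from 3NQ (rank 305) and 0.70 from the library labelled ΔTM (rank 291). These calls rest on low values. With a pseudocount of 5, the differences were 0.35, 0.28 and 0.31, and none was called. NR4A3 (ENSG00000119508, chromosome 9 from 102584137 to 102629173, plus strand) had an FPKM of 0.285 for Luc, 0.531 for WT, 0.309 for 3NQ and 0.122 for the ΔTM-labelled library, below the filter throughout.

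IER3 (ENSG00000137331, chromosome 6 from 30710976 to 30712331, minus strand) had an FPKM of 60.3 for Luc, 72.2 for WT, 66.7 for 3NQ and 61.7 for the ΔTM-labelled library, a difference from Luc of 0.26, 0.14 and 0.033. IER2 (ENSG00000160888, chromosome 19 from 13261229 to 13265722, plus strand) was the steadiest of the set, with 16.5, 18.1, 16.6 and 16.2 in the same order. Its highest value was 1.12 times its lowest, and its difference from Luc was 0.13 in WT. Neither gene was called in any comparison.

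**Figure D4:**
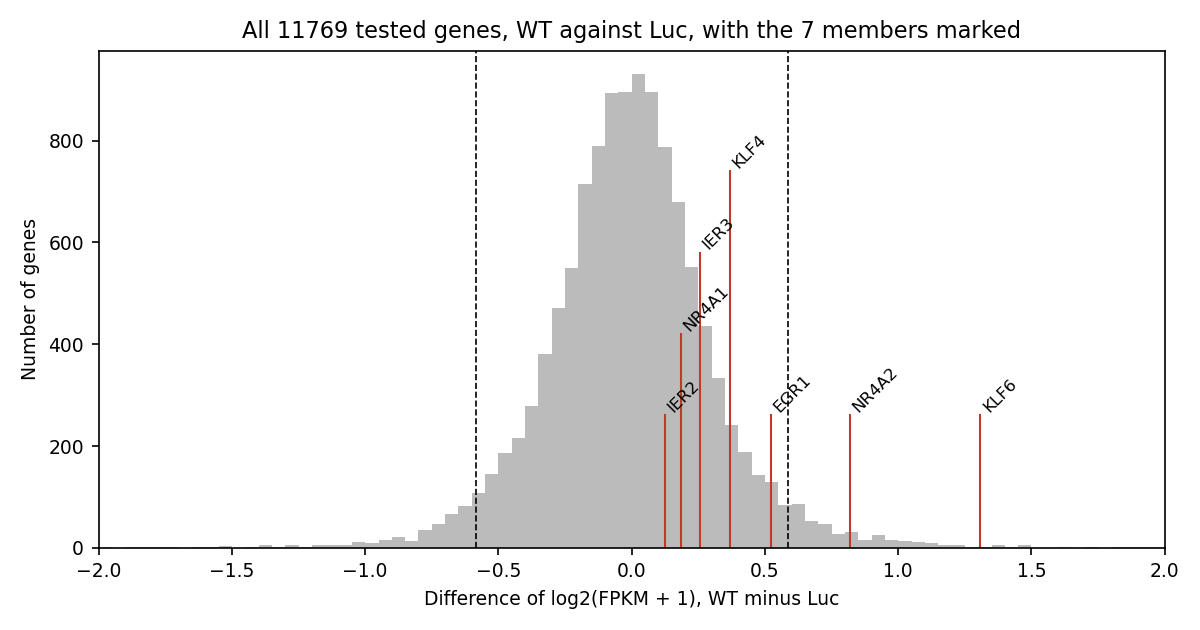
Number of genes (y axis) by difference of log2(FPKM + 1) of WT minus Luc (x axis) for the 11769 tested genes, of which 25 beyond 2 in either direction are not drawn. Red lines mark the 7 tested members at heights chosen for legibility, and dashed lines mark 1.5-fold. All 7 lie right of 0, IER2, NR4A1, IER3 and KLF4 within the bulk of genes and KLF6 at 1.31 in the tail.

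Other genes of these families were followed through a list of 18, of which 12 passed the filter. In WT compared to Luc, 2 were called higher and 0 lower, where 3.36% of all tested genes were higher and 3.34% lower, with a median of 0.15. The same shares apply to the WT counts of the lists that follow. KLF2, a Krüppel-like factor best known from endothelium, had an FPKM of 0.741 for Luc, 2.35 for WT, 0.915 for 3NQ and 0.477 for the ΔTM-labelled library, a difference from Luc of 0.94 in WT. It passed the filter through its WT value alone. KLF12 had 4.18, 6.85, 5.05 and 3.33, a difference of 0.60 in WT. None of the 12 was called in 3NQ or the library labelled ΔTM against Luc, with a median of −0.13 and −0.22. KLF5, a Krüppel-like factor of dividing gut epithelium that often opposes KLF4, went the other way from KLF4, with an FPKM of 48.3 for Luc, 43.3 for WT, 38.3 for 3NQ and 40.3 for the ΔTM-labelled library, differences that were not called. Family members were therefore not all highest in WT. Of the 12, 9 were highest in WT, compared to 33.6% of all tested genes, and 3, KLF3, KLF5 and KLF16, in Luc. Among the lists described below, WT was highest for 13 of 23 other immediate-early genes, 7 of 8 AP-1 genes and 3 of 4 phosphatases. It was highest for 7 of 23 upstream factors, 1 of 7 partners and 4 of 12 EGR1 targets. Being highest in WT was thus not particular to the members.

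Of 24 other immediate-early genes, 23 passed the filter, and 4 were called higher and 0 lower in WT compared to Luc, with a median of 0.19. RHOB, a small GTPase, had an FPKM of 37.5 for Luc, 118 for WT, 60.0 for 3NQ and 43.7 for the ΔTM-labelled library, a difference of 1.63 in WT and 0.67 in 3NQ. PPP1R15A, also known as GADD34, directs the phosphatase that restores translation after stress. It had 25.1, 52.8, 39.5 and 29.1, a difference of 1.04 in WT and 0.63 in 3NQ. GEM had 0.637, 1.82, 0.905 and 0.617, a difference of 0.79 in WT that rests on low values, and like KLF2 it passed the filter through its WT value alone. TRIB1, a pseudokinase, had 20.9, 33.2, 28.7 and 25.0, with a difference of 0.65 in WT. RHOB and PPP1R15A were thus called in 3NQ as well, both not far above the threshold. No member was called there, but 6 of the 7 tested members lay above Luc, EGR1 and KLF6 by 0.40 each, and 1 below. With 1.77% of all tested genes called higher in 3NQ, the lack of a call among 7 members does not set them apart from these genes. The library labelled ΔTM had no call against Luc among the 23, and the median there was 0.0041. CYR61, a matrix protein that is also induced at once by serum, was highest in 3NQ, with an FPKM of 255.9, and nearly level elsewhere, at 202.7 for Luc, 203.2 for WT and 203.9 for the ΔTM-labelled library, with no call against Luc.

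The AP-1 genes, whose products pair as FOS and JUN proteins, differed unequally. All 8 passed the filter, and 3 were called higher and 1 lower in WT compared to Luc, with a median of 0.43. FOS was the one called lower, with an FPKM of 32.6 for Luc, 21.2 for WT, 25.9 for 3NQ and 27.0 for the ΔTM-labelled library, a difference of −0.60 in WT. It is, like EGR1, a textbook target of serum response factor, and its order of libraries was the opposite of that of EGR1, which was lowest in Luc. JUN (a difference of 1.04), FOSL1 (0.81) and ATF3 (0.70) were called higher, and JUN (0.68) and FOSL1 (0.66) also in 3NQ. Among the 7 dual-specificity phosphatases, which switch off MAP kinases, 4 passed the filter and DUSP8 alone was called in WT, at 0.89, from an FPKM of 1.67 in Luc to 3.95. The list median was 0.42. DUSP1, usually among the strongest immediate-early genes, was listed at 0 in all 4 libraries, which can be a failed estimate.

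**Figure D5:**
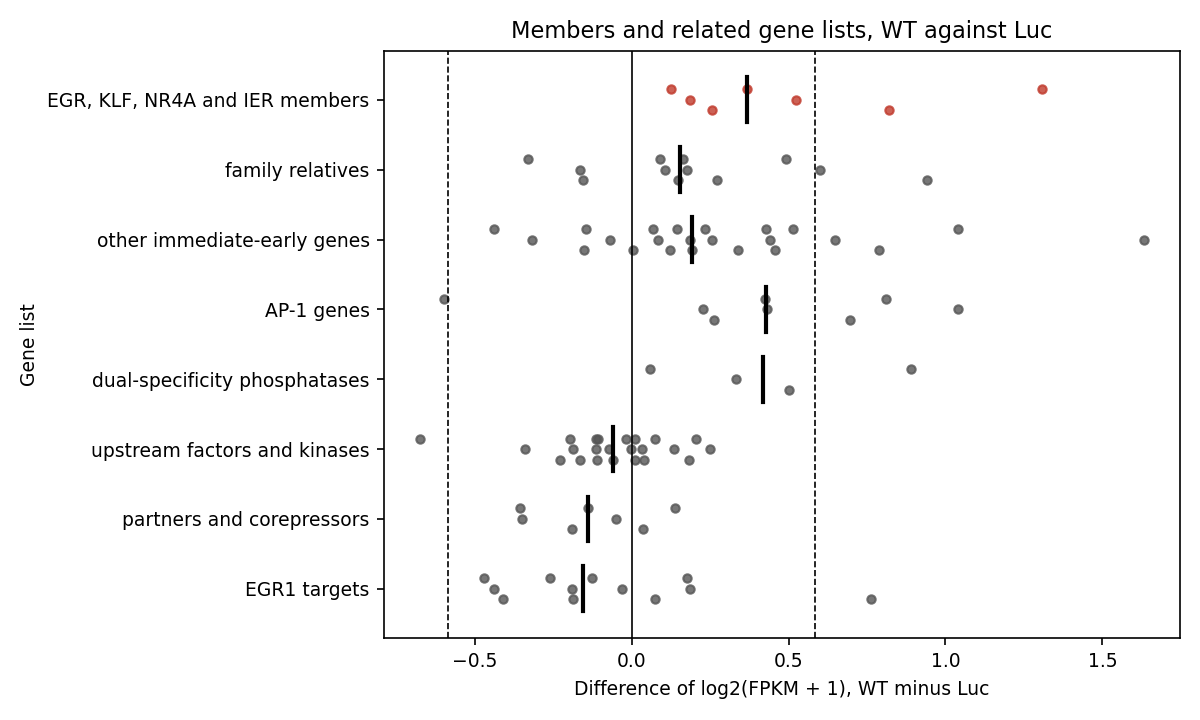
Difference of log2(FPKM + 1) of WT minus Luc (x axis) for the tested genes of each list (y axis), with 1 point per gene and a black bar at the list's median. Points are spread vertically for legibility, and dashed lines mark 1.5-fold. The medians of the members (0.37), AP-1 genes (0.43) and dual-specificity phosphatases (0.42) lie right of 0, and those of the upstream factors, partners and EGR1 targets lie left of it.

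The factors and kinases that act upstream of these genes were nearly level. All 23 passed the filter, none was called higher and 1, RPS6KA5, was called lower in WT, with a median of −0.059. RPS6KA5 encodes MSK1, a kinase that phosphorylates CREB and histone H3 at immediate-early genes. Its FPKM was 2.97 for Luc, 1.49 for WT, 1.55 for 3NQ and 2.37 for the ΔTM-labelled library, a difference of −0.67 in WT and −0.64 in 3NQ. SRF itself had 16.2, 19.5, 16.4 and 14.7, a difference of 0.25 in WT. Activity of these proteins is set mainly by phosphorylation, which RNA levels do not show.

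Partners and corepressors gave no call in any of the 6 comparisons among the 7 of 8 genes that passed the filter, with a median of −0.14 in WT. NAB1 and NAB2 bind EGR proteins and repress their activity, and NAB2 is itself induced by EGR1. NAB1 had an FPKM of 30.8 for Luc, 23.9 for WT, 21.3 for 3NQ and 24.9 for the ΔTM-labelled library, and NAB2 had 19.99, 17.4, 16.2 and 17.8. Both were highest in Luc, the library in which EGR1 was lowest. Of 12 genes known as EGR1 targets, CDKN1A alone was called higher in WT and none lower, with a median of −0.16. CDKN1A, which encodes the cell cycle inhibitor p21 and is also a target of KLF4 and KLF6, had a difference of 0.76. Among the other targets, PDGFA had −0.47, F3 −0.44 and THBS1 −0.41, none of them called. F3 and THBS1 were, however, called lower in WT than in 3NQ, by −0.75 and −0.64.

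The other comparisons are given for these lists beside the same shares of all tested genes as for the members. In 3NQ compared to Luc (1.77% of tested genes higher, 2.57% lower), 2 of the other immediate-early genes, 2 AP-1 genes and 1 phosphatase (DUSP8) were called higher, with RPS6KA5 the one gene called lower. In the library labelled ΔTM compared to Luc (1.54% higher, 1.57% lower), no gene of these lists was called higher, and the matrix gene FN1 of the EGR1 targets was the one called lower, at −0.66. WT was higher than 3NQ (2.89% higher, 1.58% lower) in 1 of the 12 family relatives, 1 of the 23 other immediate-early genes and 1 of the 4 phosphatases. The relative was KLF2, which passed the filter through its WT value alone. The calls in the other direction were F3, which stands in the immediate-early list as well as among the EGR1 targets, and THBS1. Compared to the library labelled ΔTM (4.25% higher, 2.91% lower), WT was higher in 2 of the 12 family relatives, 4 of the 23 other immediate-early genes, 2 of the 8 AP-1 genes, 2 of the 4 phosphatases and 2 of the 12 EGR1 targets, and lower in 0. The EGR1 targets include NR4A1, so that 1 of their 2 calls is that of a member. KLF2 was again among the relatives called, and GEM among the other immediate-early genes. Both passed the filter through WT alone. Between 3NQ and the library labelled ΔTM (1.46% higher, 1.88% lower), DUSP8 alone was called, higher in 3NQ by 0.85.

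KRT8 and KRT18, the keratins of simple epithelium, were called lower in WT compared to Luc. KRT8 had an FPKM of 8501 for Luc, 4510 for WT, 6362 for 3NQ and 6912 for the ΔTM-labelled library, and KRT18 had 3684, 2115, 2673 and 3610. The other 5 epithelial markers were not called, with differences from −0.22 for CDH1 to 0.020 for ELF3. The part of these differences in the values of the immediate-early genes was not tested. In bulk RNA, more cells expressing a gene and more RNA per cell cannot be told apart.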

How the data were processed

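Poly(A) RNA of 4 MKN28 lines was sequenced as 1 library each. The authors aligned quality-filtered reads to GRCh37 (TopHat) and ran Cufflinks 2.1.1 on Ensembl genes with a mask for non-coding regions and with corrections for multi-reads and fragment bias. Depth is unknown, since the deposited FPKM were already scaled by the authors for length and library size.

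Differences of log2(FPKM + 1) were computed for 6 comparisons in Python 3.11.15 (pandas 2.3.3, numpy 2.4.6), over 11769 genes that reached an FPKM of 1 in any library, and the steps were tested on simulated data. Calls were made from 1.5-fold up, without a test. Where 1 of the 166 entries that repeat a symbol fell in a list, the entry of higher mean FPKM stood for the gene. All 10 members were named. From each other list, called genes with the largest difference in WT compared to Luc were named (at most 4), with JUN, FOS, ATF3 and DUSP1, and others were picked with their values known. Members and lists were chosen with earlier results of these data known. Mitochondrially encoded genes were not analysed here. Gene structure was taken from GENCODE 44 on GRCh37 and promoters from RefSeq (GRCh38.p14), and figures were drawn with matplotlib 3.10.9.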

Additional observations from a re-analysis of the deposited data

How the results depend on the processing

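KLF6 was called higher in WT than in Luc and than in the library labelled ΔTM under each of these alternatives: 2-fold as the threshold, a pseudocount of 0.1 or 5, every gene kept, an FPKM of at least 5, and both rescalings. It was also called with both mutants averaged in place of Luc, a setting run for WT alone. In the comparison with 3NQ it fell below the 2-fold threshold. At 2-fold, the members called were 1 for WT against Luc, 0 for WT against 3NQ and 1 for WT against the library labelled ΔTM. A pseudocount of 5 left 1 in each of these comparisons, as NR4A2 and, against the library labelled ΔTM, NR4A1 fell below the threshold. With an FPKM of at least 5 required, which leaves out NR4A2, they were 1 for WT against Luc and 1 for WT against 3NQ. The median of the members in the library labelled ΔTM against Luc was −0.011 with no filter, when EGR2, EGR3 and NR4A3 enter, 0.021 with an FPKM of at least 5 required, and 0.094 and 0.067 with the libraries rescaled (median of ratios, upper quartile). That of 3NQ against Luc was 0.085 with no filter. No other count of called members and no other median of the members moved by more than 1.5 times. Of all tested genes, 396 were higher and 393 lower in WT compared to Luc, 79 and 67 at 2-fold, 147 and 128 with a pseudocount of 5, and 600 and 659 with a pseudocount of 0.1. No paired analysis was possible because each group had 1 library. The WT rule for the highest library and its alternatives were added after seeing the data.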

Other observations

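Genes outside the set were ranked by how closely their pattern over the 4 libraries followed that of EGR1, as the Euclidean distance between log2(FPKM + 1) values centered on the mean of the libraries, among the 9380 genes that reached an FPKM of 5 in any of the libraries. The nearest were CLIP4 (distance 0.016), CBY1 (0.030), EDF1 (0.042), TYMP (0.044) and PIGP (0.048). CLIP4 had an FPKM of 12.0 for Luc, 17.8 for WT, 16.0 for 3NQ and 14.5 for the ΔTM-labelled library. Among the tested members, KLF4 was the nearest to EGR1, at 0.19, and 282 of the 9380 genes were nearer, whereas KLF6 was the farthest, at 0.74. For the mean pattern of the 7 tested members, the nearest genes were SCFD2 (0.023), TICAM1 (0.034), APOL2 (0.039), SYS1 (0.039) and OPLAH (0.039), and KLF4 (0.14) was again the nearest member. With 4 libraries, many genes share a pattern, and nothing about shared control follows from these distances.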
